A study of Equus caballus with 78 samples.

Results

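eca-miR-31, the horse form of miR-31, is 1 microRNA among 690 horse microRNA names counted in extracellular vesicles, small membrane sacs released by cells into body fluids. It was chosen by its measured read levels across fluids and time points, and its row was read in each of 78 libraries. The libraries come from 4 horses (Equus caballus) in a model of osteoarthritis, a degenerative joint disease: 26 of plasma, 26 of synovial fluid from a joint labelled OA and 26 of synovial fluid from a joint labelled CTRL. All 3 kinds of sample are of the same horses, so plasma also comes from animals with a joint labelled OA. The labels number 7 time points as 0, 10, 35, 42, 49, 56 and 63 without a unit, and horses 2, 4, 6 and 8 fill 21 groups of fluid and time point with 3 or 4 libraries each. Libraries of horse 4 at time point 10 and of horse 2 at 63 were not analysed here. The labels do not say how the model was made, how old the horses were or how vesicles were prepared.

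miR-31 is a microRNA, a short RNA that guides the Argonaute protein to matching messenger RNAs and lowers their output. In mammals it is known from epithelia and keratinocytes, where it rises on injury and in inflamed skin. In mouse muscle stem cells it holds back translation of the muscle regulator Myf5, in human T cells it represses FOXP3, and in human endothelial cells it is induced by tumour necrosis factor and represses E-selectin. MicroRNAs in vesicles of a fluid can come from any cell that sheds into it, so in bulk fluid more vesicles of a cell type and more miR-31 per vesicle cannot be told apart.

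Library totals ran from 2029244 to 12613572 reads, but the microRNA reads within them only from 3916 to 1865513. Their medians were 14055 in plasma, 42865.5 in OA-joint fluid and 26141 in CTRL-joint fluid. Levels are given as CPM, the count of a microRNA per 1000000 microRNA reads of its library. In 3 plasma libraries (horse 2 at time point 0, horse 6 at 10 and horse 8 at 63) microRNA was over 5% of the library total, against a median of 0.287% over all plasma libraries. These 3 held 84.1% of all plasma microRNA reads and 93.1% of all plasma miR-31 reads (46294 of 49734). Levels and comparisons that rest on them are therefore also given without them where these were computed. Lane, read from the deposited file names, also moved with fluid: lane 1 held all 26 plasma, 2 OA and 8 CTRL libraries, and lane 2 the other 24 OA and 18 CTRL libraries.

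miR-31 was read at a high level in some libraries and near 0 in others of the same fluid. Of the 78 libraries 40 held at least 100 miR-31 reads and 29 held under 10, and 4 fell between 10 and 39 reads. In plasma the level ran from 37.9 to 42434 CPM with a median of 761 CPM. In OA-joint fluid it ran from 0 to 13085 CPM with a median of 3286 CPM, and in CTRL-joint fluid from 0 to 22801 CPM with a median of 2367 CPM (n = 26 libraries each). Plasma therefore held the highest single levels and the lowest median, and the ranges of the 3 fluids overlapped.

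A level over 1000 CPM was found in 12 of 26 plasma libraries (46.2%), in 17 of 26 OA libraries (65.4%) and in 16 of 26 CTRL libraries (61.5%). A level over 10000 CPM was found in 9 plasma libraries, 1 OA library and 4 CTRL libraries. Within the plasma libraries not rich in microRNA, 9 of 23 stood over 1000 CPM and 6 over 10000 CPM, with a median of 607 CPM. The 3 rich libraries stood between 15414 and 26393 CPM.

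**Figure D1:**
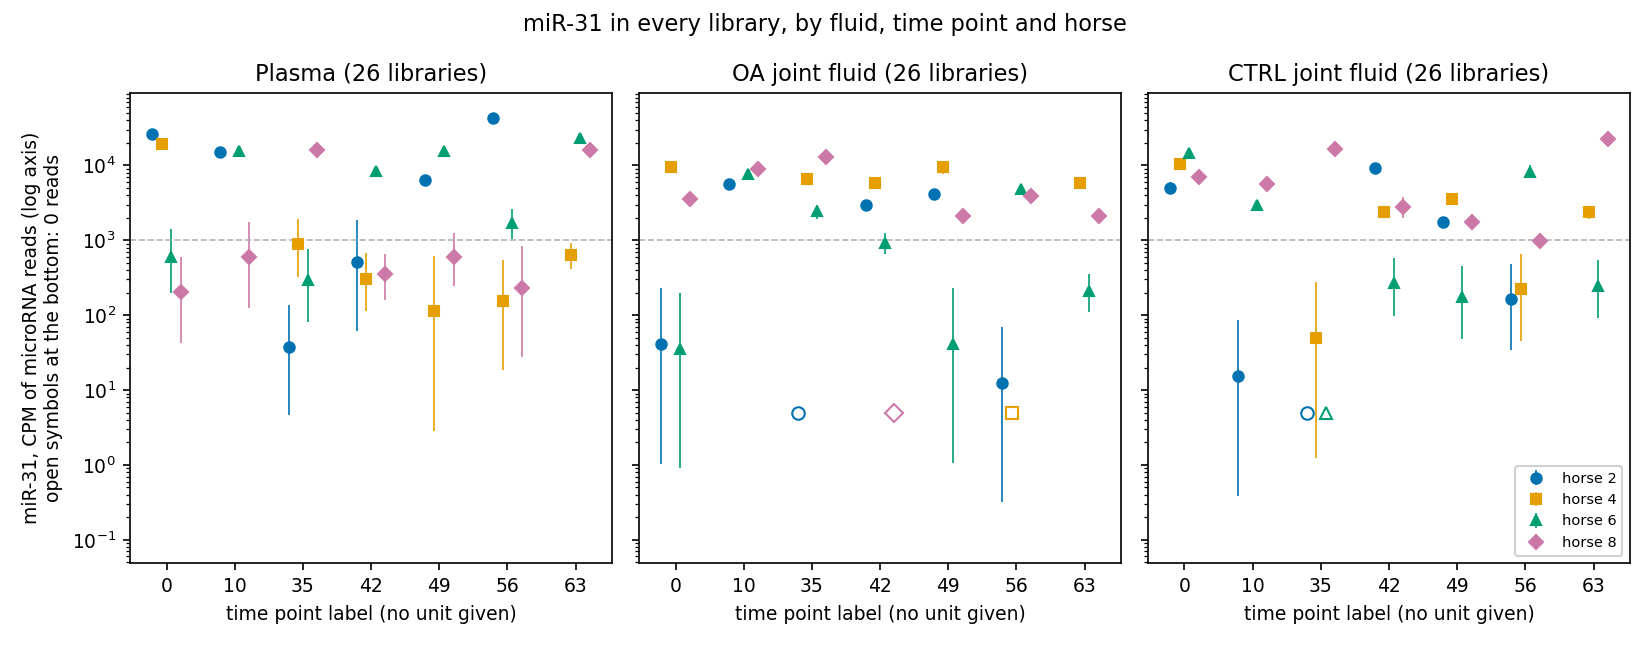
miR-31 in CPM of the microRNA reads (log axis) in each library of plasma, OA-joint fluid and CTRL-joint fluid, by time point label (x axis) and horse (colour and shape), with exact 95% binomial intervals for counting error. Open symbols are libraries with 0 reads, and the dashed line is 1000 CPM, which 12 plasma, 17 OA and 16 CTRL libraries exceed.

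In the libraries named here, picked for high or low counts, exact intervals that treat each read as independent did not overlap between high and low. The highest plasma level, in horse 2 at time point 56, rested on 295 of 6952 microRNA reads (exact 95% interval 37816 to 47440 CPM). The same horse at time point 35 had 2 miR-31 reads among 52751 (4.59 to 137 CPM). In OA-joint fluid horse 8 had 345 reads at time point 35 (11748 to 14531 CPM) and 0 of 61828 at time point 42, where 3 reads, the limit that a count of 0 allows, would be 48.5 CPM. In CTRL-joint fluid at time point 35 horse 8 had 741 of 44926 reads (15336 to 17714 CPM), while horse 2 had 0 of 101806, which allows up to 29.5 CPM. These intervals cover counting error of independent reads only. Reads copied by PCR are not independent molecules, and the part of such copies in these gaps was not tested.

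Reads of miR-31 were present in 73 of 78 libraries (93.6%): in all 26 of plasma, in 23 of OA-joint fluid (88.5%) and in 24 of CTRL-joint fluid (92.3%). The low counts differed by lane. In lane 1 none of 36 libraries was at 0, 1 held exactly 1 read and 17 held 2 to 9. In lane 2, 5 of 42 were at 0, 6 held exactly 1 read and none held 2 to 9. Lane 1 held 50467 miR-31 reads in all and lane 2 held 7229. For plasma, lane and fluid cannot be told apart, and the part of lane in these low counts was not tested.

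**Figure D2:**
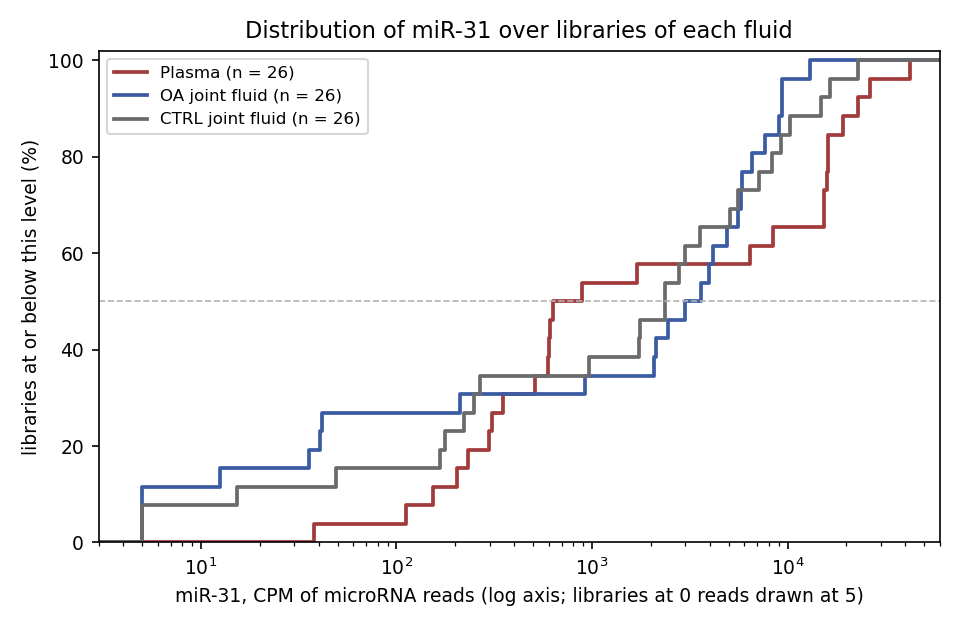
Share of libraries (%) at or below each miR-31 level (CPM of microRNA reads, log axis) in plasma, OA-joint fluid and CTRL-joint fluid, 26 libraries each. The plasma curve crosses 50% (dashed line) at the lowest level, with a median of 761 CPM against 3286 CPM in OA and 2367 CPM in CTRL, yet reaches farthest right, to 42434 CPM.

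By rank of its mean library level miR-31 was the 21st of 234 microRNAs with reads in plasma, at 8145 ± 11001 CPM (SD, n = 26 libraries). It stood between miR-191a (8567 ± 9025 CPM) and miR-23b (7956 ± 13774 CPM) there. Without the 3 rich libraries it was the 28th of 167, at 6691 ± 10721 CPM (SD, n = 23 libraries). In OA-joint fluid it was the 41st of 194, at 3842 ± 3696 CPM, beside miR-30e (4213 ± 3598 CPM) and miR-101 (3810 ± 3066 CPM). In CTRL-joint fluid it was the 40th of 188, at 4593 ± 5932 CPM, between miR-101 (4881 ± 2803 CPM) and miR-126-5p, an endothelial and platelet microRNA, at 4489 ± 5517 CPM. None of these neighbours differed from miR-31 by more than the SD of either.

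Other microRNAs of like mean level were uneven too. In plasma 14 libraries were under 1000 CPM of miR-31, against a median of 10 libraries (range 3 to 24) for the 29 other microRNAs whose mean lay within a factor of 2 of its mean. In OA-joint fluid the count was 9, against a median of 5.5 over 26 such microRNAs, and in CTRL-joint fluid it was 10, against a median of 8 over 30. In plasma 4 of those 29 had at least as many libraries under 1000 CPM, in OA-joint fluid 9 of 26 and in CTRL-joint fluid 11 of 30. Without the 3 rich libraries the plasma count was again 14, against a median of 10 (range 3 to 14) over 27 microRNAs of like mean level, of which 3 had at least as many. With all libraries, 10 of the 29 had reads in every plasma library.

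The comparison of fluids asked how the vesicle microRNAs of plasma stand against those of a joint. Because miR-31 was chosen on its levels in these fluids, the values are a description and no test of miR-31 is given. With reads summed per horse, plasma held 19110, 3688, 14189 and 15537 CPM in horses 2, 4, 6 and 8. The OA joints of these horses held 2194, 6206, 2896 and 3807 CPM, and the CTRL joints 1941, 2848, 3725 and 4995 CPM. Plasma was above the CTRL joint in 4 of 4 horses and above the OA joint in 3 of 4, horse 4 being lower in plasma than in its OA joint.

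The means were 13131 ± 6629 CPM in plasma, 3776 ± 1750 CPM in OA joints and 3377 ± 1301 CPM in CTRL joints (SD, n = 4 horses). After TMM scaling, which corrects for microRNAs that take much of a library, the log2 fold of plasma over the OA joint was 2.28 (SE 0.47) and of plasma over the CTRL joint 2.04 (SE 0.52). In the scaled sums plasma was higher than either joint in 4 of 4 horses, in horse 4 narrowly, with 4727 scaled CPM in plasma against 4582 in its OA joint. In the same fits 19 of 126 microRNAs were called higher in plasma than in the OA joint (15.1%) and 13 of 126 higher than in the CTRL joint (10.3%).

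The sums rest on few libraries. A single library gave 84.8% of the plasma miR-31 reads of horse 2, 89.6% of those of horse 4, 85.1% of those of horse 6 and 99.5% of those of horse 8. Without the 3 libraries rich in microRNA, plasma held 7517, 3688, 9762 and 1948 CPM in horses 2, 4, 6 and 8. It was then above the OA joint in 2 of 4 horses and above the CTRL joint in 3 of 4. The log2 fold became 1.08 (SE 0.59) over the OA joint and 1.22 (SE 0.60) over the CTRL joint. Without the library of each horse that held most of its plasma miR-31 reads, plasma of horse 4 stood at 464 CPM, and plasma was above each kind of joint in 2 of 4 horses.

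**Figure D3:**
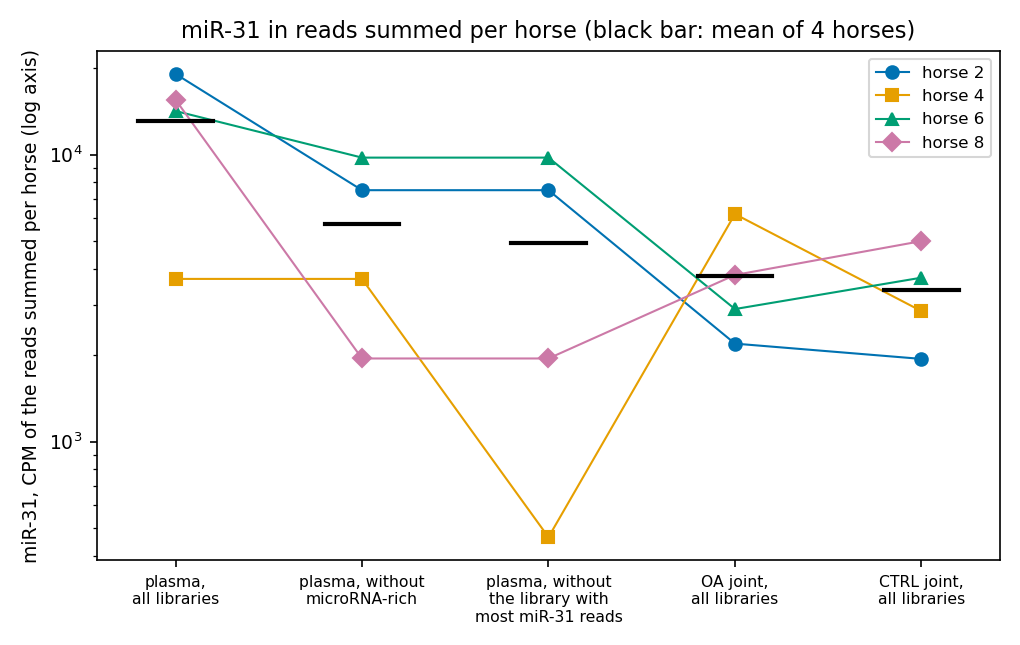
miR-31 in CPM of reads summed per horse (log axis) in plasma with all libraries, without the 3 libraries rich in microRNA and without the library with most miR-31 reads of each horse, then in OA and CTRL joints. Points are horses joined by lines, and black bars are means of 4 horses; plasma of horse 4 reads 464 CPM in the third column and 3688 CPM in the first.

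The direction of the fluid difference turned with the summary used. When each library weighed equally within a horse, the mean log2 ratio of plasma to OA joint was 1.01 (SE 0.85) and of plasma to CTRL joint 0.80 (SE 0.70). The ratio of the median library levels was -2.11 on the log2 scale for plasma over OA and -1.64 for plasma over CTRL, that is, lower in plasma. In libraries matched by horse and time point, plasma was higher than the OA joint in 15 of 26 pairs and higher than the CTRL joint in 12 of 26. Without the 3 rich libraries these counts were 12 of 23 and 10 of 23. Medians of the libraries of a horse were higher in plasma in 2 of 4 horses against either joint.

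Scaled to all reads of the library (as RPM) instead of to its microRNA reads, the median of miR-31 was 2.73 RPM in plasma, 17.0 RPM in OA-joint fluid and 15.4 RPM in CTRL-joint fluid. Its highest values on that scale were 2995 RPM in plasma, 52.1 RPM in OA-joint fluid and 114 RPM in CTRL-joint fluid. With miR-486-5p, a red blood cell microRNA that leads many plasma libraries, left out of the sum, the medians were 2048, 3484 and 2466 CPM in plasma, OA-joint and CTRL-joint fluid. Plasma had the lowest median on each of these scales, and without the 3 rich libraries its medians were 1.06 RPM and, with miR-486-5p left out, 1155 CPM. Means of the library values of each horse gave the other direction on both. Per library total, the mean log2 ratio of plasma was 3.17 (SE 1.24) over the OA joint and 3.08 (SE 0.96) over the CTRL joint. With miR-486-5p left out it was 1.55 (SE 0.94) over the OA joint and 1.33 (SE 0.82) over the CTRL joint. These ratios include the 3 rich libraries and were not computed without them. Without them the mean over plasma libraries fell from 276 to 26.3 RPM. The means over OA-joint and CTRL-joint libraries were 18.2 and 20.4 RPM.

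**Figure D4:**
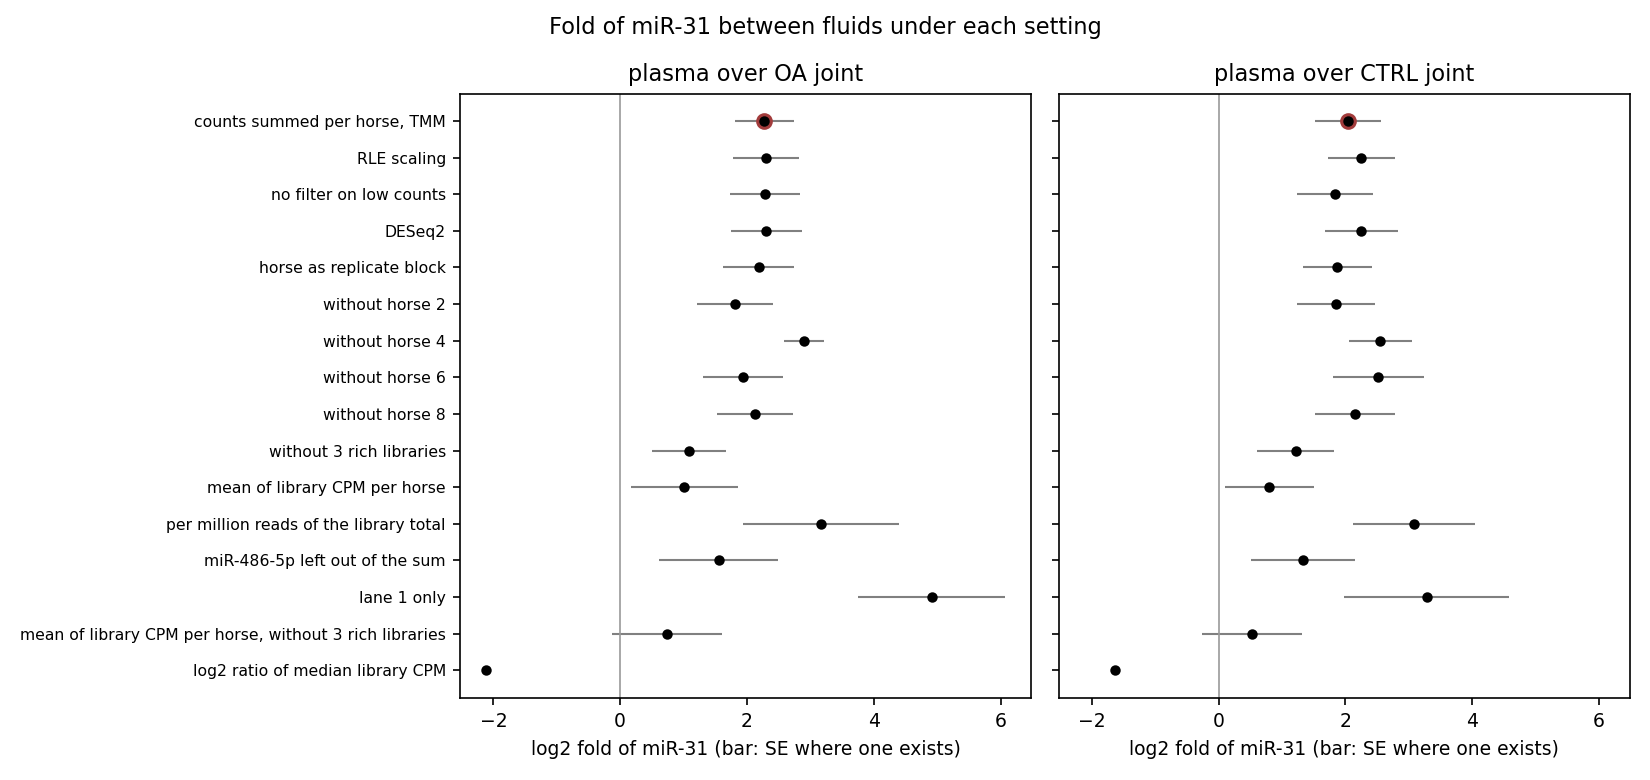
Log2 fold of miR-31 in plasma over the OA joint (left) and over the CTRL joint (right) under each setting, with SE bars where one exists; the ringed point at the top is the fold from counts summed per horse with TMM scaling, 2.28 and 2.04. Folds are above 0 except for the ratio of median library levels, at -2.11 and -1.64.

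The comparison of joints set the vesicle microRNAs of OA joints against those of the CTRL joints of the same horses. The levels of miR-31 in both joints and at each time point were also known when it was chosen, so the p-values between joints and over time describe the fits and are no independent evidence. After time point 0 miR-31 in reads summed per horse stood at 2363, 5409, 3191 and 3837 CPM in the OA joints of horses 2, 4, 6 and 8, against 1801, 2251, 1742 and 4817 CPM in their CTRL joints. OA exceeded CTRL in 3 of 4 horses, and horse 8 went the other way. The means were 3700 ± 1289 CPM in OA joints and 2653 ± 1460 CPM in CTRL joints (SD, n = 4 each). The log2 fold of 0.43 (SE 0.49), fitted without a term for horse, did not pass edgeR's quasi-likelihood test (adjusted p = 0.945). With horse as a replicate block it was 0.55 (SE 0.69, edgeR adjusted p = 0.910). No microRNA passed without that term: 0 of 117 were called (0%), with 10 at an unadjusted p under 0.05 in edgeR. DESeq2 called 4, and the fit with horse as a replicate block called 3. In counts simulated for the fit without horse, 8 of 29 microRNAs changed by a factor of 4 were called.

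In matched libraries after time point 0, OA exceeded CTRL in 12 of 22 pairs and fell below it in 9, and 1 pair was at 0 in both joints. Over all 26 pairs both joints of a horse exceeded 1000 CPM in 13, neither did in 6, the OA joint alone did in 4 and the CTRL joint alone in 3. In lane 2 alone the fold was 0.79 (SE 1.19; edgeR adjusted p = 0.943), and without horse 8 it was 0.85 (SE 0.54; edgeR adjusted p = 0.797). Without horse 4 it was 0.14 (SE 0.64; edgeR adjusted p = 0.982).

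At time point 0 OA lay below CTRL in 4 of 4 horses. Horses 2, 4, 6 and 8 had 40.8, 9411, 35.6 and 3590 CPM in OA joints, against 5053, 10312, 14870 and 7105 CPM in CTRL joints. The groups overlapped, since horse 4 alone in OA lay within the CTRL range. At time point 10 the order was the other way round, higher in OA in 3 of 3 horses. Horses 2, 6 and 8 then had 5587, 7649 and 9066 CPM in OA joints, against 15.3, 2981 and 5597 CPM in CTRL joints, so that the lowest OA value lay just inside the CTRL range.

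At time point 35 OA joints of horses 2, 4, 6 and 8 had 0, 6555, 2437 and 13085 CPM, against 0, 49.2, 0 and 16494 CPM in CTRL joints. At time point 42 they had 2981, 5837, 923 and 0 CPM in OA joints, against 9208, 2372, 267 and 2788 CPM in CTRL joints. At both times the ranges of the joints overlapped and 2 of 4 horses were higher in OA; horse 2 at time point 35 was at 0 in both. At time point 49 OA joints had 4138, 9396, 41.7 and 2082 CPM, against 1740, 3569, 176 and 1765 CPM in CTRL joints. At time point 56 they had 12.5, 0, 4900 and 3966 CPM in OA joints, against 167, 222, 8289 and 967 CPM in CTRL joints. OA was higher in 3 of 4 horses at time point 49 and in 1 of 4 at 56. At time point 63 horses 4, 6 and 8 had 5812, 210 and 2127 CPM in OA joints, against 2362, 249 and 22801 CPM in CTRL joints, the last of these in a library of 4342 microRNA reads.

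Tested over the 7 time points together in all 52 joint libraries, miR-31 did not pass between OA and CTRL (edgeR F = 0.338, adjusted p = 0.999), where 1 of 139 microRNAs was called (0.719%; 3 with horse as a replicate block). In counts simulated for this test, 26.1% of unchanged microRNAs had an unadjusted p under 0.05 where others were changed by a factor of 4, and 24.8% where the factor was 16. The test called 7 of 30 microRNAs changed by a factor of 4, beside 7 false calls, and 17 of 28 changed by a factor of 16, beside 9 false calls. A missed call here says little about a change of such size.

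Over time miR-31 did not pass in any fluid, except in plasma when no filter on low counts was used. In OA joints the mean level was 3269 ± 4423 CPM at time point 0 and 7434 ± 1749 at 10. It was then 5519 ± 5723 at 35, 2436 ± 2588 at 42, 3914 ± 4019 at 49, 2220 ± 2584 at 56 and 2717 ± 2847 CPM at 63 (SD, n = 3 or 4). The edgeR test of the 6 later time points against time point 0 gave F = 0.266 (adjusted p = 1), with 0 of 139 microRNAs called (0%; 45 at an unadjusted p under 0.05 and 0 called in DESeq2).

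In CTRL joints the mean was 9335 ± 4278 CPM at time point 0, where the 4 horses ran from 5053 to 14870 CPM. It was 2865 ± 2793 at 10, 4136 ± 8239 at 35, 3659 ± 3860 at 42, 1813 ± 1387 at 49, 2411 ± 3935 at 56 and 8470 ± 12455 CPM at 63 (SD, n = 3 or 4). Each later group held at least 1 library at or under 267 CPM. The test gave F = 0.403 (edgeR adjusted p = 0.951), with 0 of 139 microRNAs called (0%; 46 at an unadjusted p under 0.05, 2 called in DESeq2 and 9 with horse as a replicate block). Without horse 8, the horse with the highest later levels, the edgeR adjusted p was 0.271.

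In plasma horses 2, 4, 6 and 8 had 26393, 19140, 607 and 205 CPM at time point 0, and horses 2, 6 and 8 had 15291, 15414 and 597 CPM at 10. At time point 35 the 4 horses had 37.9, 892, 297 and 16107 CPM, and at 42 they had 511, 308, 8471 and 350 CPM. Each of these groups held both high and low libraries, and which horse was high changed from one time point to the next. At time point 49 the values were 6389, 112, 15836 and 606 CPM, at 56 they were 42434, 153, 1699 and 231 CPM, and at 63 horses 4, 6 and 8 had 630, 22998 and 16069 CPM. After time point 0 plasma of horse 4 never exceeded 892 CPM, while plasma of horse 6 exceeded 1000 CPM in 5 of 6 libraries.

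The test over time in plasma gave F = 1.09 (edgeR adjusted p = 0.698), with 10 of 92 microRNAs called (10.9%; 0 in DESeq2 and 0 with horse as a replicate block). Without a filter on low counts miR-31 passed (edgeR adjusted p = 0.0265). In that fit 35 of 234 microRNAs were called and 81 had an unadjusted p under 0.05, and libraries of a horse count as separate samples. As miR-31 was chosen on levels that include these, its pass is no independent evidence. With the filter it did not pass with horse as a replicate block (edgeR adjusted p = 0.921) or without the 3 rich libraries (edgeR adjusted p = 0.636). In counts simulated for the main plasma test over time, 0 of 25 microRNAs changed by a factor of 4 were called, beside 3 false calls. Of those changed by a factor of 16, 3 of 23 were called, beside 2 false calls. Of the unchanged microRNAs 14.3% and 17.9% had an unadjusted p under 0.05 at these factors.

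Ordered by mean level, the 21 groups ran from plasma at time point 63 (13232 ± 11451 CPM), plasma at 0 (11586 ± 13246 CPM), plasma at 56 (11129 ± 20882 CPM) and plasma at 10 (10434 ± 8519 CPM) down to the CTRL joint at 49 (1813 ± 1387 CPM). After those 4 plasma groups came CTRL joints at time point 0 (9335 ± 4278 CPM). The highest OA group was time point 10 (7434 ± 1749 CPM). Each of the 20 pairs of neighbours in that order overlapped, and each gap was smaller than the SD of both groups, so no neighbours differ beyond their spread. Without the 3 rich libraries plasma at 0 (6651 ± 10818 CPM, n = 3) and at 10 (7944 ± 10390 CPM, n = 2) stood below CTRL joints at time point 0, plasma at 63 (11814 ± 15817 CPM, n = 2) stayed highest, and again all 20 pairs of neighbours overlapped.

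The microRNAs most like miR-31 over all 78 libraries, by Spearman's rho of CPM among 63 with reads in at least 39 libraries, were miR-21 (0.46), miR-222 (0.41), miR-19b (0.40), miR-99a (0.35) and miR-221 (0.31), against a median rho of 0.030. miR-21 is found in many cell types and goes up in inflamed and fibrotic tissue. miR-221 and miR-222 are a clustered pair abundant in endothelial cells, miR-19b belongs to the miR-17-92 cluster and miR-99a is abundant in mesenchymal cells. The libraries share fluids, horses and depth, and shares of a sum are not independent, so these values are a description. Most are weak.

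In the 26 plasma libraries miR-99a was the most like (rho 0.71), followed by miR-21 (0.56) and miR-19b (0.55), among 62 microRNAs with a median of 0.13. Without the 3 rich libraries miR-99a stood at 0.74, miR-19b at 0.50 and miR-21 at 0.48. Plasma miR-99a ran from 152 to 52957 CPM with a median of 1514 CPM. The least like in plasma was miR-10b (-0.67), which lies in a HOX gene cluster. In the 52 joint libraries miR-24 (0.43), miR-19b (0.42) and miR-222 (0.36) led, with a median of 0.023 over 64 microRNAs, and miR-99a stood at 0.23.

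**Figure D5:**
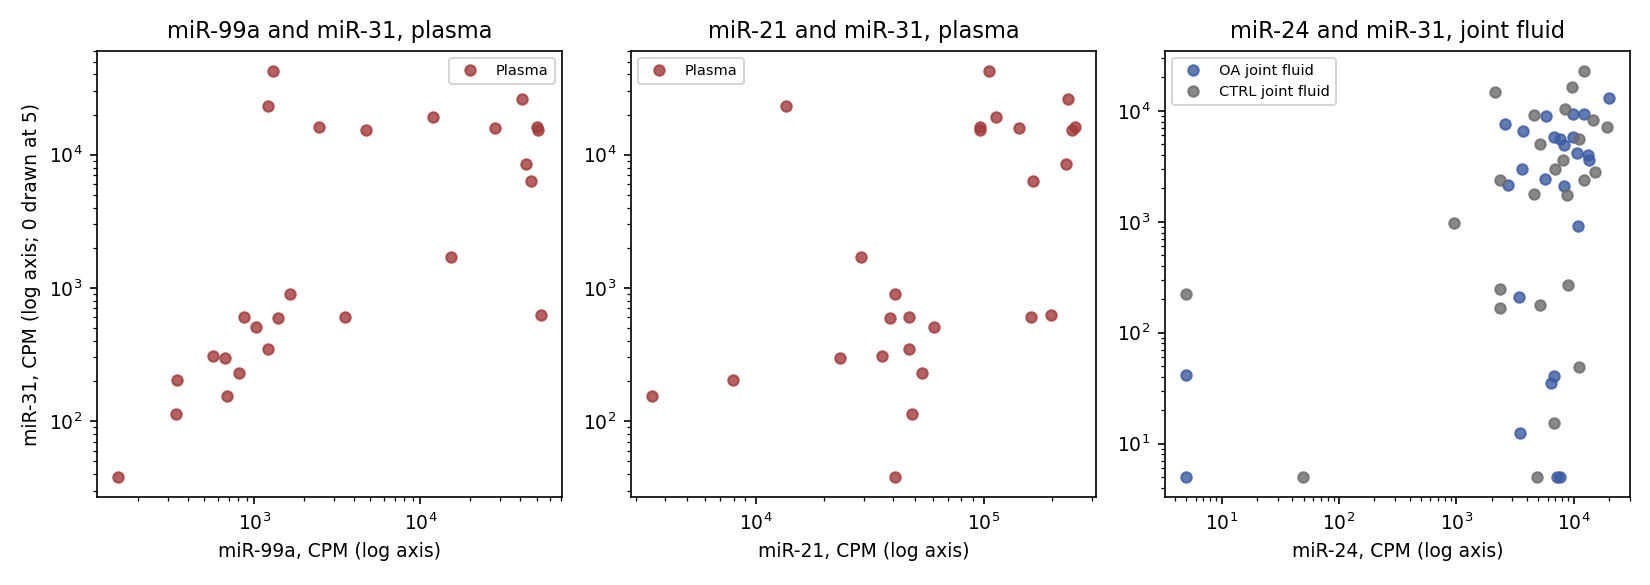
miR-31 against miR-99a and miR-21 in 26 plasma libraries, and against miR-24 in 52 joint libraries, in CPM of microRNA reads on log axes, 1 point a library and 0 drawn at 5. In plasma low miR-31 goes mostly with low miR-99a (rho 0.71), and in joint fluid the points of miR-24 scatter more widely (rho 0.43). These microRNAs differ between the fluids, each being the most like miR-31 in its own. For miR-99a rho was 0.23 in joint fluid, and for miR-24 it was 0.04 in plasma.

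Marker lists of cell types that miR-31 is known from, and of others that shed into these fluids, stood as follows. The endothelial list (miR-126-3p, miR-126-5p, miR-221 and miR-222) took a median of 4.34% of microRNA reads in plasma (0.407% to 22.5%), 3.63% in OA-joint fluid (1.20% to 9.67%) and 3.50% in CTRL-joint fluid (0.0297% to 10.4%). All 4 members were called higher in plasma than in either joint, among the 15.1% and 10.3% of all microRNAs called higher. Their median log2 fold was 2.36 over the OA joint and 1.98 over the CTRL joint, against medians of 0.11 and -0.16 over all 126 microRNAs. Without the 3 rich libraries 2 of 4 were called over the OA joint and 0 of 4 over the CTRL joint (edgeR; 9 of 107 and 1 of 106 of all microRNAs were called higher, or 8.41% and 0.943%). Their part in the level of miR-31 was not tested.

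Epithelial markers were sparse: of 10 listed members 9 were found by name, and of these 8 had a read in plasma, 7 in OA-joint and 6 in CTRL-joint fluid, with medians of 0.0891%, 0.109% and 0.0911% of reads. miR-182 averaged 1345 CPM in plasma, 1181 CPM in OA-joint and 874 CPM in CTRL-joint fluid, with reads in 8, 14 and 12 libraries. miR-205 averaged 906, 398 and 111 CPM in the same order, and miR-141 351, 747 and 610 CPM. miR-429, of the epithelial miR-200 family, was at 0 reads in all 3 fluids. miR-200c averaged 7.68 CPM in plasma, 193 CPM in OA-joint and 101 CPM in CTRL-joint fluid. Of 5 members tested in each fit, 0 were called between plasma and either joint, as were 0 of 3 without the rich libraries. Over all microRNAs 31 of 126 were called against the OA joint and 27 of 126 against the CTRL joint. Without the rich libraries these were 22 of 107 and 2 of 106. In counts simulated for plasma against the CTRL joint, 4 of 27 microRNAs changed by a factor of 4 were called. For a factor of 16 it was 15 of 25. Uncalled members may therefore still differ. Skeletal muscle markers had a median of 0% in each fluid. miR-133b, miR-208b and miR-499-5p were at 0 reads throughout and miR-206, a skeletal muscle microRNA, had reads in 1 OA library. miR-1 and miR-133a, the muscle microRNAs that were read, reached 4 and 6 plasma, 4 and 4 OA, and 5 and 6 CTRL libraries.

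Lymphocyte markers took a median of 0.167% of reads in plasma, 0.980% in OA-joint fluid and 1.25% in CTRL-joint fluid. Of 4 tested, 0 were called higher and 1 lower in plasma against each joint. Over all 126 microRNAs 15.1% were called higher and 9.52% lower against the OA joint. Against the CTRL joint the shares were 10.3% and 11.1%. The median log2 fold of the 4 was -1.61 over the OA joint and -2.86 over the CTRL joint. The uncalled miR-150, miR-155 and miR-342-3p had folds of -3.88, 1.05 and -0.48 over the OA joint. Over the CTRL joint these were -5.23, -0.60 and -2.72. The member called lower was miR-28-3p, named after its values were seen, with a fold of -2.74 (SE 0.52, edgeR adjusted p = 0.00215) over the OA joint and -3.00 (SE 0.57, edgeR adjusted p = 0.00294) over the CTRL joint. Without the rich libraries 0 of 4 were called against either joint.

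Of 11 mesenchymal microRNAs 4 were called higher and 3 lower in plasma against each joint. Those lower were miR-10b, miR-199a-3p and miR-199b-3p. The miR-199 names had nearly equal values, each with a fold of -2.41 over the OA joint and -2.23 over the CTRL joint. Their calls are therefore not separate and may count the same reads. Over all 126 microRNAs 15.1% were called higher and 9.52% lower against the OA joint, and 10.3% higher and 11.1% lower against the CTRL joint. Of 7 platelet microRNAs 4 were called higher against each joint, and these are the same 4 as the whole endothelial list. The other platelet members, miR-223, miR-191a and miR-24, were not called, with folds of -1.48, 0.70 and -0.90 over the OA joint and -2.20, -0.29 and -1.19 over the CTRL joint. Without the rich libraries 1 mesenchymal member was called higher and 3 lower of 11 against the OA joint, and 0 higher and 1 lower of 10 against the CTRL joint. The platelet counts were then 2 of 7 against the OA joint and 0 of 7 against the CTRL joint. Over all microRNAs 8.41% were then called higher and 12.1% lower against the OA joint, and 0.943% each way against the CTRL joint. Erythrocyte microRNAs took a median of 47.3% of reads in plasma (2.27% to 78.8%), 12.9% in OA-joint fluid and 15.3% in CTRL-joint fluid. miR-486-5p averaged 371431 CPM in plasma, 60786 CPM in OA-joint and 64297 CPM in CTRL-joint fluid. miR-16 and miR-25 averaged less in plasma than in either joint fluid. In the sums per horse, of 6 erythrocyte microRNAs none was called higher in plasma over either joint. Of these 0 were lower than in the OA joint and 2 lower than in the CTRL joint. Without the rich libraries 1 was higher and 0 lower against either joint. In the comparison of OA with CTRL joints after time point 0, edgeR called 0 members in each of the 12 lists, the 7 tested inflammation-induced microRNAs included, 1 of which is miR-31. Among the microRNAs most like miR-31, the log2 fold of OA over CTRL was -1.44 for miR-19b (SE 0.53, edgeR adjusted p = 0.396) and -0.67 for miR-99a (SE 0.29, edgeR adjusted p = 0.434). For miR-21 it was -0.06 (SE 0.25), for miR-24 -0.05 (SE 0.31), for miR-221 -0.19 (SE 0.29) and for miR-222 0.17 (SE 0.34), with edgeR adjusted p = 0.985, 0.985, 0.945 and 0.945.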

How the data were processed

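Small RNA of extracellular vesicles was sequenced after preparation with TriLink's CleanTag kit, per the labels' protocols. The tools named are cutadapt, Bowtie and edgeR, and the build is EquCab3.0, per the submitters' processing notes. For versions, settings and reads shared by near-identical microRNAs, nothing is given in the sources used here. Whole-number read counts per microRNA name, as deposited, carried every test. A deposited RPM column is relative to a larger library total and served only to recover that total. Spike-in rows stayed out of library sizes. The horse is the replicate: its number marks the same animal in all fluids, and deviations of a horse from the group means correlated between fluids at -0.11 to 0.31 over 64 microRNAs.

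Across all features edgeR 4.0.16 was run (TMM, filterByExpr with a count minimum of 10, quasi-likelihood F-test, Benjamini-Hochberg at 0.05; R 4.3.3): on counts summed per horse for fluids and for joints after time point 0, and on libraries (7 plasma groups, and the joints by time point) for time, where libraries of a horse count as separate samples. The steps were tested on simulated data. Alternatives were RLE scaling, no filter, DESeq2 1.42.0, horse as a block, each horse left out, lane, other denominators and leaving out the libraries rich in microRNA. Python 3.11.15, scipy 1.17.1 and exact (Clopper-Pearson) intervals served for levels. Libraries of 3916 to 1865513 microRNA reads put the limit for a count of 0 (3 reads) at 766 to 1.61 CPM.

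miR-31, the marker lists and the alternatives were chosen with earlier results of these data known. Named microRNAs are miR-31, the 5 most like it over 78 libraries, the 3 most like it in plasma and in joint fluid, and list members by count. No sequence table was used here, so relatives by seed were not looked up. No pair of libraries held identical counts.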

Additional observations from a re-analysis of the deposited data

Results flagged for a closer look

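Of the 27 sets of miR-31 values examined (4 libraries or 4 horses each), 7 held 1 value far from the other 3; chance marks about 1 in 20 sets of normally distributed values. The levels here are skewed, the rate for such values was not computed, and the sets per horse reuse the libraries of the others. In plasma these were horse 8 at time point 35 (16107 CPM), horse 6 at 42 (8471 CPM) and horse 2 at 56 (42434 CPM), each above 3 plasma libraries at or under 1699 CPM. In CTRL-joint fluid they were horse 8 at 35 (16494 CPM, with the other 3 at or under 49.2 CPM) and horse 6 at 56 (8289 CPM, with the others at or under 967 CPM). After time point 0 the CTRL joint of horse 8 stood apart from those of the other horses, at 4817 CPM in its summed reads and at 8402 CPM as the mean of its 6 libraries. All 7 lie on the high side, and no set of OA-joint values was among them.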

How the results depend on the processing

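The fold of plasma over the CTRL joint kept its direction in 14 of 15 alternatives and stayed within the spread between horses in 11. It moved to 0.80 with the mean of library CPM per horse, to 0.53 with that mean and without the 3 rich libraries, and to 3.28 in lane 1 alone, where 3 horses give CTRL libraries; the ratio of medians reversed it to -1.64. Over the OA joint the values were 0.74, 4.92 (lane 1, OA libraries of 1 horse) and -2.11. With horse as a replicate block the folds were 1.87 and 2.18, and that of OA over CTRL was 0.55. The settings with medians, with lane 1 and with means without the rich libraries were added after seeing the data, as were those on library totals, miR-486-5p and library means in the joint comparison. The cause of these shifts was not tested.

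The joint comparison after time point 0 kept its direction in 13 alternatives (log2 folds of 0.14 to 0.99). In the 9 that gave an adjusted p it stayed uncalled, as did the tests by time in joints. These 9 had log2 folds of 0.14 to 0.85 and adjusted p of 0.797 to 0.991 (edgeR or DESeq2). The plasma test over time passed only without a filter (edgeR adjusted p = 0.0265, range over settings 0.0265 to 0.937). As miR-31 was chosen on its levels, that pass is no independent evidence. The block changed no call of miR-31.

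Counts of microRNAs called in either direction moved with the setting, in part by more than 1.5 times. For plasma against CTRL 27 were called, with 1 in lane 1, 2 without the rich libraries, 9 without horse 6, 8 without horse 8 and up to 38. For plasma against OA 31 were called, with 21 without horse 2 and 44 without horse 4. The count in lane 1 alone is not given, since its OA libraries are of 1 horse. Between joints the counts ran from 0 to 5 after time point 0 and from 0 to 3 by time, where the main fit called 1. Over time they were 0 in OA joints (46 without a filter), 0 to 9 in CTRL joints and 10 in plasma (0 to 35). At the shallowest depths a count of 0 would allow 766 CPM in plasma and 691 CPM in CTRL-joint fluid.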
